A study of Mus musculus with 2 samples.

Results

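The trace amine-associated receptor genes described here are the 10 genes Taar1, Taar2, Taar3, Taar4, Taar5, Taar6, Taar8a, Taar8b, Taar8c and Taar9, chosen by name. They are 10 of 15 protein-coding genes with a Taar symbol, and of 21755 protein-coding genes on the 20 chromosomes with boundaries (19 autosomes and X). All of them lie on chromosome 10, and their starts were taken from GENCODE release M21 (GRCm38). The data are 1 list of chromosome domain boundaries from in situ Hi-C, which counts pairs of DNA ends joined because they were near each other in the nucleus. The contacts of 2 biological replicates were pooled before the boundaries were called. The cells were mature olfactory sensory neurons (mOSNs), 1000000 per replicate, obtained by fluorescence-activated sorting from the olfactory epithelium. The mice were adults, of both sexes and of a strain the labels do not specify. Both replicates carried a conditional Ldb1 knockout driven by OMP-Cre, and there was no other group. Omp is switched on as olfactory neurons mature, so Cre acts late in their development. Ldb1 is a cofactor that joins transcription factors bound at olfactory receptor enhancers. The list can show neither whether Ldb1 was lost nor how pure the sort was, since it holds no expression value, and it gives no comparison with control neurons.

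Trace amine-associated receptors are G protein-coupled receptors for volatile and biogenic amines. In the mouse, Taar1 acts in the brain and in peripheral organs and is not an olfactory receptor. The other Taar genes are expressed in the nose, where a neuron typically uses 1 of them and no olfactory receptor gene of the large Olfr families. Their expression needs enhancers that lie within the cluster. Neurons that use a Taar gene are a small minority of mature olfactory neurons, so pooled contacts come mostly from neurons in which these genes are silent.

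All 10 genes lay in 1 domain, meaning the stretch between 2 neighbouring boundaries. No boundary of the list fell between the first and the last of the 15 Taar genes. The domain was 325 kb long (chromosome 10, 23815001 to 24140000) and had a strong boundary on each side. The left boundary, on the side of lower coordinates and nearer to Taar1, had a strength of 1.56 (23810001 to 23815000). The right boundary, nearer to Taar9, had a strength of 0.776 (24140001 to 24145000). Strength is the authors' own score for each bin of 5 kb, and the lowest score that the authors classed as strong was 0.5002. The lowest score in the list was 0.2001, so a stretch without a listed boundary may still hold bins of a lower score. With both replicates merged before calling, these values have no replicate error, and no difference could be tested against the spread between replicates.

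Sequences at which domains often end carry the motif bound by CTCF, a zinc finger protein at which cohesin stops while extruding loops, so the matches to its consensus are shown first. A script found 3 matches from 25 kb left of the left boundary to 25 kb right of the right boundary, and 2 of them were inside the domain. Each is printed 5′ to 3′ on the strand of the match, from the GRCm38 reference, with the 12 matching bases in capitals and 24 bases on either side.
Left of the domain, chr10:23794338-23794397, forward strand: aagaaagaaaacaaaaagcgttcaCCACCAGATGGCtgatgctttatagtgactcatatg
Inside, between Vnn3 and Vnn1, chr10:23880864-23880923, forward strand: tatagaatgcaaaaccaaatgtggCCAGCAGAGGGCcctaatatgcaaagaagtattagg
Inside, near the right boundary, chr10:24131611-24131670, reverse strand: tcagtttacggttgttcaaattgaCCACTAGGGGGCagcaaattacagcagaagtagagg

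Both exact matches inside the domain faced inward, and all 15 Taar genes lay between them. Matches with 1 mismatch are not counted here, and with them allowed 89.1% of all boundaries had a match within 10 kb. The forward match was 65.9 kb inside the left boundary and the reverse match 8.36 kb inside the right one, in an intron of the long noncoding RNA gene Gm40614. They were 251 kb apart, with 16 protein-coding starts between them, the 15 Taar genes and Vnn1. Of 1458 intervals of the genome with exactly 2 matches, the Taar domain among them, 483 (33.1%) had them facing inward, 227 (15.6%) outward and 748 (51.3%) the same way, so an inward pair is a common arrangement. Of the 2 flanking boundaries, the right one had a match within 10 kb, and over all boundaries of the list 24.4% did. The left boundary, the stronger of the pair, had none within 10 kb, and its nearest match lay outside the domain, 15.6 kb from the outer edge of the boundary bin. A match is a sequence and not a measurement of binding.

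**Figure D1:**
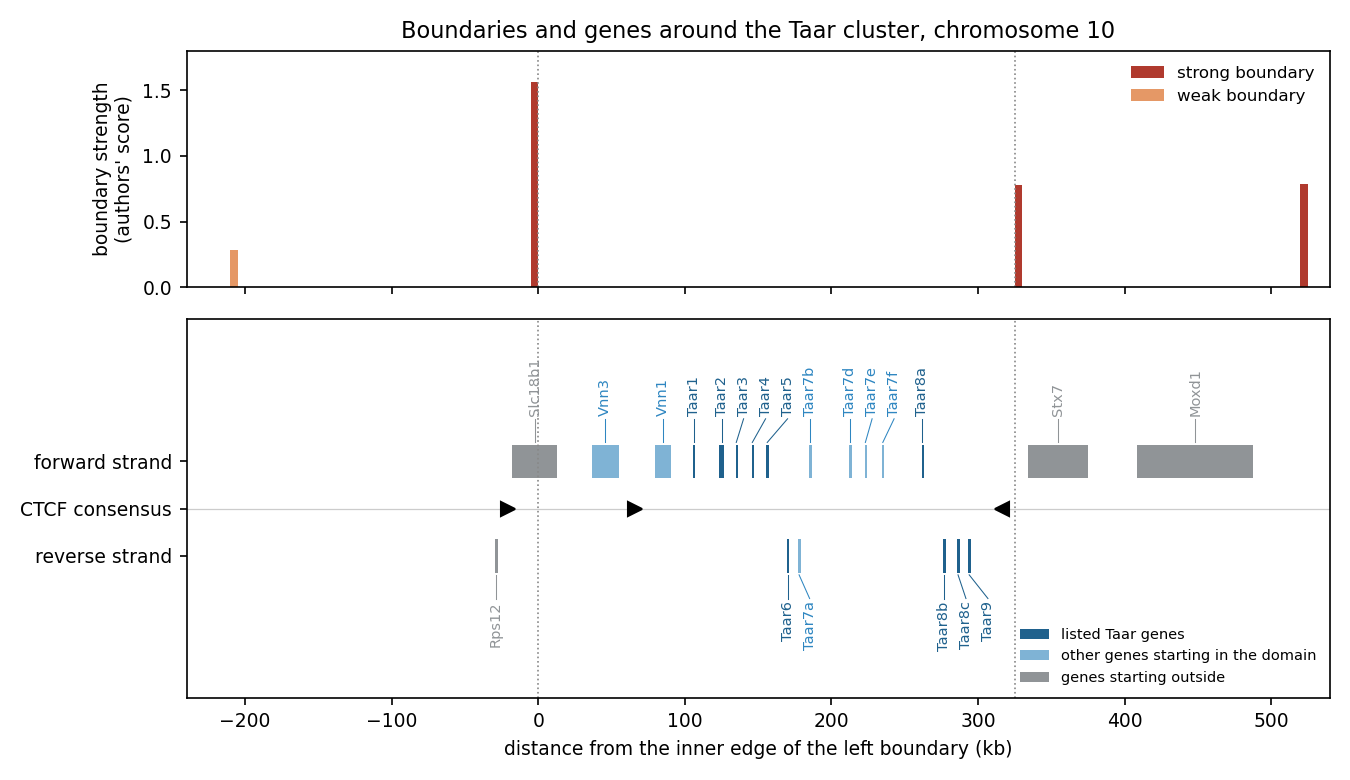
Upper panel: boundary strength (authors' score) of the boundaries around the Taar cluster, against distance in kb from the inner edge of the left boundary. Lower panel: protein-coding genes by strand and matches to the CTCF consensus (arrowheads, pointing along the strand of the match, drawn within 25 kb of the domain and its boundaries), with dotted lines at the edges of the 325 kb domain. No boundary stands between the lines, and the 10 listed genes fill the middle and right of the domain.

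The left boundary stood high in the list and the right one nearer the middle. The left boundary was stronger than 92.7% of the 7610 boundaries and ranked 30 of 387 on chromosome 10. The right boundary was stronger than 66.3% of the list and ranked 128 on chromosome 10. Domains with 2 flanks of this strength were in the minority. The weaker flank of the Taar domain exceeded the weaker flank of 89.7% of the 7590 intervals, whose median was 0.343, and 85.5% of intervals had a stronger flank below 1.56.

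The next boundaries outward differed between the sides. To the left, the next was weak (0.286; 23605001 to 23610000), overlapped an exon of the noncoding RNA gene Gm47843 and had Rps12 as its nearest protein-coding start, 177 kb away. The one beyond it was strong (0.689; 23095001 to 23100000), intergenic and 251 kb from the start of Eya4, a transcriptional co-activator. To the right, the next was strong (0.783; 24335001 to 24340000), intergenic and 111 kb from the start of Moxd1. The one beyond it was strong too (1.23; 24610001 to 24615000) and lay 14.6 kb from the start of Ccn2, which encodes a matricellular growth factor.

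At the left edge the boundary bin overlapped an exon of Slc18b1, which encodes a vesicular polyamine transporter. Slc18b1 (23796986 to 23827968, forward strand) therefore crossed the boundary, with its start 13.0 kb outside it and its 3′ end inside the domain. The start of Rps12, a protein of the small ribosomal subunit, was 22.7 kb outside the same boundary. The right boundary was intergenic, between Taar9 and Stx7, which encodes a syntaxin of late endosomes. The start of Stx7 was 4.30 kb beyond it, the only one of the 3 nearest starts on either side within 10 kb of a flank. The start of Moxd1, which encodes a monooxygenase related to dopamine beta-hydroxylase, was 78.5 kb beyond the right boundary.

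Inside the domain, 17 protein-coding genes had their start, the 15 Taar genes and 2 vanin genes. Vnn3 and Vnn1, which belong to the pantetheinase family, lay 36.5 and 79.7 kb from the left boundary and so between it and Taar1. The 15 Taar genes spanned 189 kb, or 58.2% of the domain. The stretch from the left boundary to the first Taar gene was 105 kb, against 30.5 kb from the last one to the right boundary, so the cluster stood off-centre. The annotation also placed 4 other records in the domain, the pseudogenes Taar7c-ps, Gm15136 and Gm6884 and the noncoding Gm40614, and RefSeq listed 0 functional elements there.

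**Figure D2:**
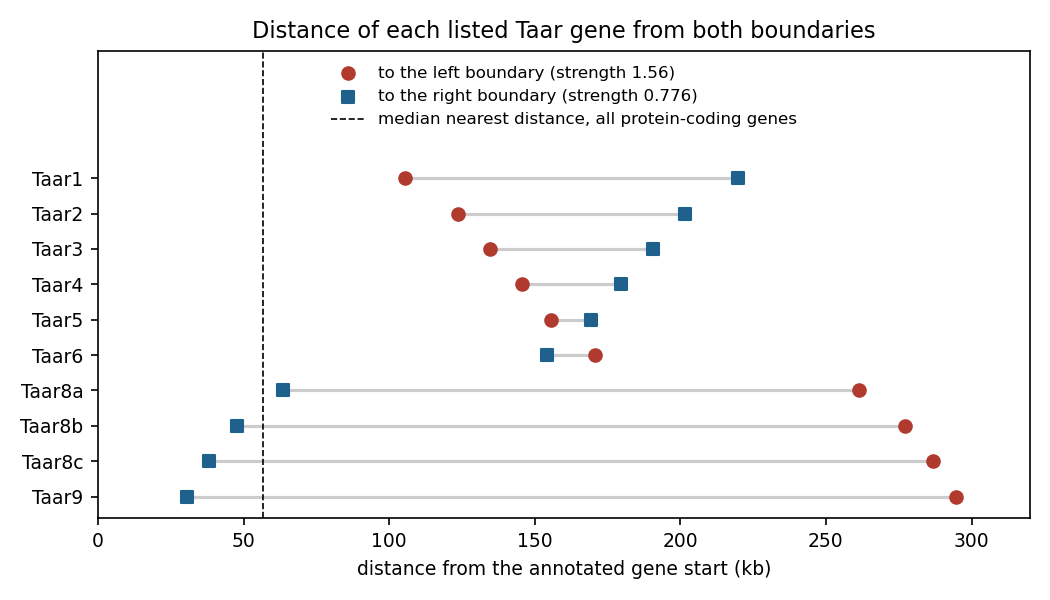
Distance in kb from the annotated start of each listed Taar gene to the left boundary (circles) and to the right boundary (squares), with genes in their order along the chromosome. The dashed line marks the median distance of all protein-coding starts to their nearest boundary, 56.6 kb, and Taar8b, Taar8c and Taar9 are the members nearer than that.

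No member started within 10 kb of a boundary, where 14.3% of all protein-coding genes did. Within 50 kb there were 3 of 10 members, against 45.3% of all protein-coding genes. The median distance to the nearest boundary was 114 kb for the members (30.5 to 156 kb), against 56.6 kb for all protein-coding genes (quartiles 23.3 and 105 kb). Neighbouring genes share a domain, so the members are not independent of each other. These starts are approximate: for 9 of the 10 members, all but Taar1, the annotation holds no untranslated bases, so the annotated start is the start codon.

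Taar1, the non-olfactory member, was the nearest of the 10 to the left boundary. It lay on the forward strand at 23920356 to 23921469, 105 kb from the left boundary and 220 kb from the right one. Of all protein-coding genes, 24.9% were farther from a boundary. Taar1 was separated from Taar2 by 18.2 kb between their starts, against a median spacing of 10.96 kb within the family (6.46 to 27.3 kb).

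Taar2, Taar3, Taar4 and Taar5 came next, all on the forward strand, at steps of 10.2 to 10.99 kb between starts. Taar2 (23938572 to 23941583) was 124 kb from the left boundary and was the only member with 2 exons. Taar3, which in the mouse responds to isoamylamine (23949558 to 23950589), was 135 kb from the left boundary. Taar4, the mouse receptor for beta-phenylethylamine, an amine of carnivore urine (23960494 to 23961537), was 145 kb from it. Taar5, the mouse receptor for trimethylamine (23970706 to 23971719), was the member farthest from any boundary, with 156 kb to the left and 169 kb to the right. Of all protein-coding genes, 13.1% lay farther from a boundary than Taar5.

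The strand turned to reverse at Taar6 and Taar7a, to forward from Taar7b to Taar8a, and back to reverse from Taar8b to Taar9. Taar6 (23984609 to 23985646, reverse strand) lay just past the middle of the domain, 171 kb from the left boundary and 154 kb from the right one. Between Taar6 and Taar8a stood the other 5 Taar genes, Taar7a, Taar7b, Taar7d, Taar7e and Taar7f, at 147 to 90.5 kb from the right boundary. None of these 5 was within 10 kb of a boundary, and their median distance was 113 kb. The widest steps of the family lay here, 27.3 kb between the starts of Taar7b and Taar7d, which holds Taar7c-ps, and 27.0 kb between those of Taar7f and Taar8a.

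Taar8a, Taar8b, Taar8c and Taar9 were, of the listed members, the closest to the right boundary. Taar8a (24076500 to 24077534) was on the forward strand and 63.5 kb from it. Taar8b (24091260 to 24092294) was 47.7 kb away on the reverse strand. Taar8c, which responds to N-methylpiperidine in the mouse (24100878 to 24101912), was 38.1 kb away on the same strand. Taar9, whose rat counterpart responds to polyamines (24108488 to 24109534, reverse strand), was nearest at 30.5 kb, a distance that 69.4% of all protein-coding genes exceeded. So 5 members were nearer to the left boundary and 5 to the right one, and 6 stood on the forward and 4 on the reverse strand.

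The members differed in sequence along the cluster in blocks. The encoded proteins had 332 to 348 residues, and identity over the 45 pairs ran from 37.6 to 96.8% with a median of 43.5%. Taar8a, Taar8b and Taar8c were the most alike, at 95.6% for Taar8a with Taar8b and 96.8% for each with Taar8c. Taar6 was 78.96% identical to Taar8b although their starts were 107 kb apart, and Taar9 was 68.3% identical to Taar8c. On the left, Taar2 and Taar3 shared 60.6% and Taar3 and Taar4 53.0%. Taar1 and Taar5 had no close relative among the members, with at most 46.2 and 45.6%. The members nearer to the right boundary were thus Taar6, Taar8a to Taar8c and Taar9, among which every pair shared at least 66.6%. The lowest pair of the 10 was Taar2 with Taar6.

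**Figure D3:**
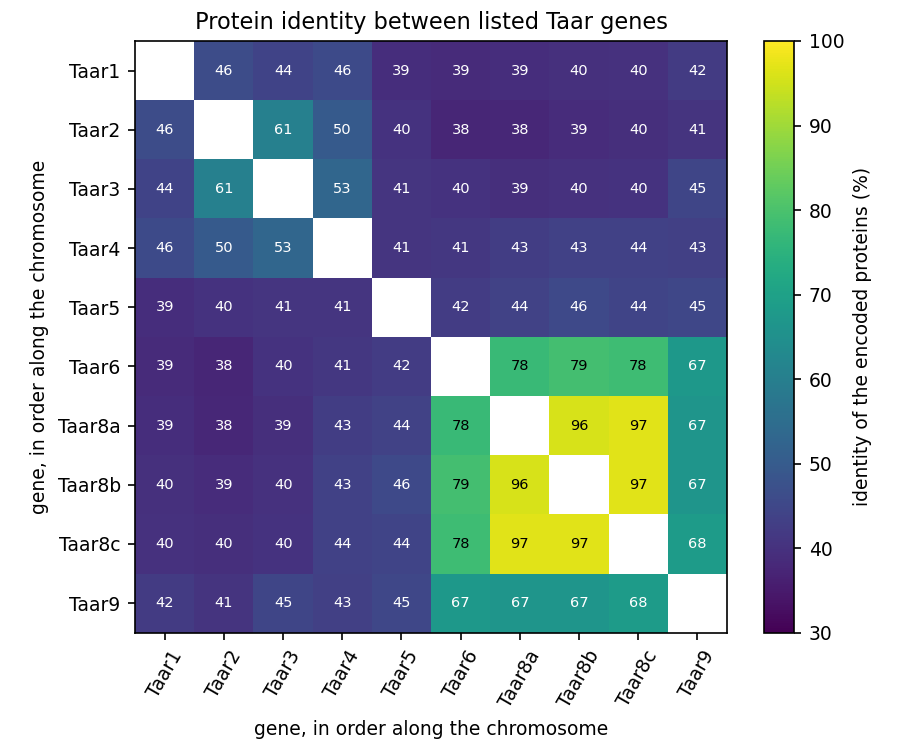
Identity in % of the proteins encoded by each pair of listed Taar genes, with genes in their order along the chromosome on both axes. Taar6, Taar8a, Taar8b, Taar8c and Taar9 form the block of high identity at the lower right.

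Repeated sequence bears on how well contacts can be placed. Of the 31-base words in each gene, 61.8% in Taar8a, 68.7% in Taar8b and 80.3% in Taar8c occurred more than once on the 20 chromosomes. Among the other members the share was highest in Taar6 (4.17%), followed by Taar9 (1.08%) and Taar2 (0.235%), and it was 0 in Taar1, Taar3, Taar4 and Taar5. In the 5 Taar7 genes between Taar6 and Taar8a, which are not listed members, the share ran from 49.3% (Taar7d) to 69.4% (Taar7e). For the whole domain it was 20.8%, against 21.9% in the interval to its left and 9.22% in the interval to its right. The flanking boundary bins had 10.2% (left) and 23.7% (right). The labels do not name the mask that the caller applied to such sequence, and the part of repeats in the calls was not tested.

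Against all intervals between neighbouring boundaries, the Taar domain ranked high in its number of genes and not in its length. It was picked because it holds the listed genes of this cluster, and 15 of its 17 starts were Taar genes. Its rank by number of genes therefore follows largely from that choice. The domain was longer than 64.01% of the 7590 intervals (exact 95% binomial interval 62.9 to 65.1%, counting error only, treating intervals as independent), whose median was 260 kb. Set against the intervals between strong boundaries alone, it was longer than 39.2%, so its place on either side of the middle depended on whether weak boundaries were counted. It was longer than 58.8% of the 386 intervals of chromosome 10. Its 17 protein-coding starts were matched or passed by 107 of the other 7589 intervals (1.41%), and the median over all intervals was 1 start. In 27 of these 107, chemoreceptor genes made up the majority of the starts. Its GC content was 41.3% (all intervals: median 42.5%) and 39.6% of its bases were soft-masked repeats (median 30.6%). Sites for DpnII, the enzyme that cut the chromatin at GATC, stood at 2.60 per kb (median 2.46), and their part in the calls was not tested.

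**Figure D4:**
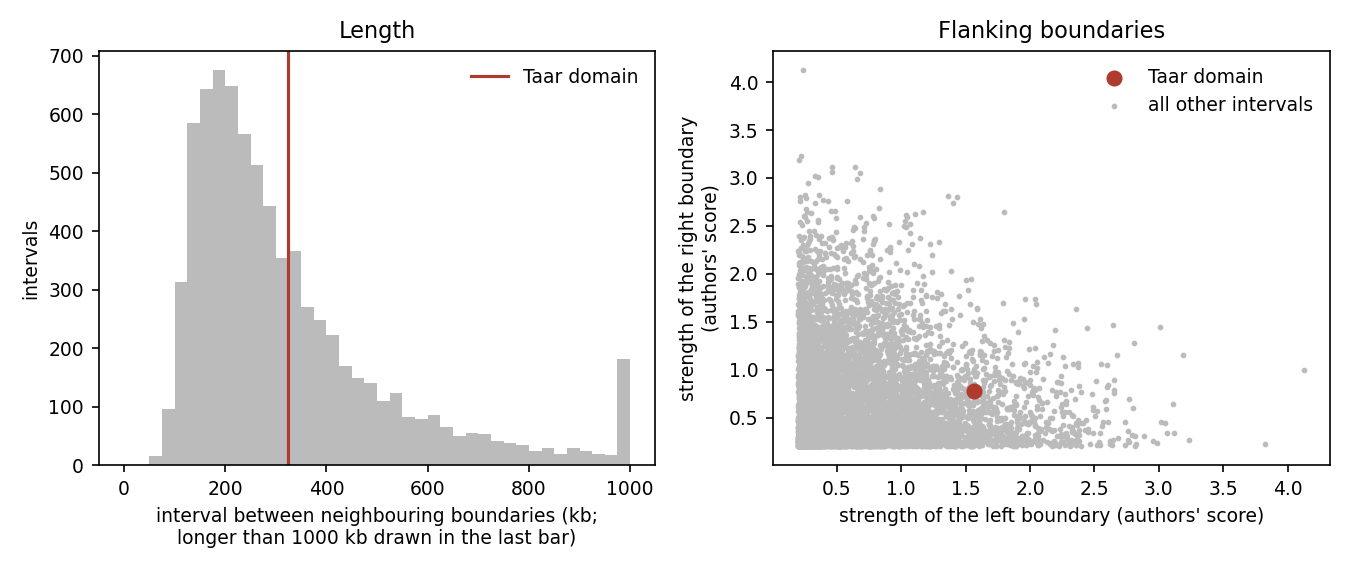
Left: number of intervals between neighbouring boundaries by length in kb, with the Taar domain (325 kb) as a line. Right: strength of the left against the right boundary (authors' score) for the Taar domain (large point) and the other intervals (small points); the Taar domain lies among the minority whose weaker flank is at least 0.776 (10.3%).

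The 5 intervals most like the Taar domain in length, strength of each flank and number of starts held no gene of the chemoreceptor families compared next. The measure was a Euclidean distance over log10 length, both strengths and log2(1 + starts), each divided by its SD over the 7590 intervals. The closest was at a distance of 0.342, on chromosome 7 from Mrps12 to Map4k1 (370 kb, 14 starts, flanks 1.56 and 0.828). The next ran from Usp39 to Tgoln1 on chromosome 6 (0.387; 325 kb, 13 starts). The others ran from Naca to Pan2 (distance 0.508), from Hepacam to Panx3 (0.544) and from Fbxo9 to Ddx43 (0.560).

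Other clustered chemoreceptor genes give the nearest comparison. Runs of at least 3 protein-coding genes of 1 family at most 200 kb apart numbered 82 outside the Taar family, of olfactory, vomeronasal, taste, formyl peptide and Ms4a receptors. The Taar run held 0 boundaries, and so did 31 of the 82 other runs. Of the 21 runs shorter than the Taar run 14 held none, and of the 61 that were as long or longer 17 held none. These runs are not all separate intervals. On chromosome 7, the runs starting at Vmn2r29, Vmn2r41, Vmn2r40 and Vmn2r46 lay between the same boundaries (0.717 and 0.435). So did those starting at Vmn1r91, Vmn1r100, Vmn1r135 and Vmn1r148 (0.585 and 0.210). Both stretches were long: the Vmn2r29 run had 2558 kb to its right boundary and the Vmn1r100 run 2100 kb. Among the 31 runs without a boundary, 6 had a strong boundary as the nearest on both sides, as the Taar run did.

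The 3 runs closest in span showed the range. Olfr1356 to Olfr57 on chromosome 10 (191 kb, 8 genes) held no boundary and had strong ones 170 kb to the left (0.714) and 104 kb to the right (2.01). Vmn2r114 to Vmn2r117 on chromosome 17 (194 kb, 4 genes) held none and had a weak one 45.4 kb to the left (0.348) and a strong one 35.3 kb to the right (1.91). Vmn1r21 to Vmn1r26 on chromosome 6 (172 kb, 6 genes) held 1 weak boundary, with weak ones outside it at 358 and 430 kb.

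**Figure D5:**
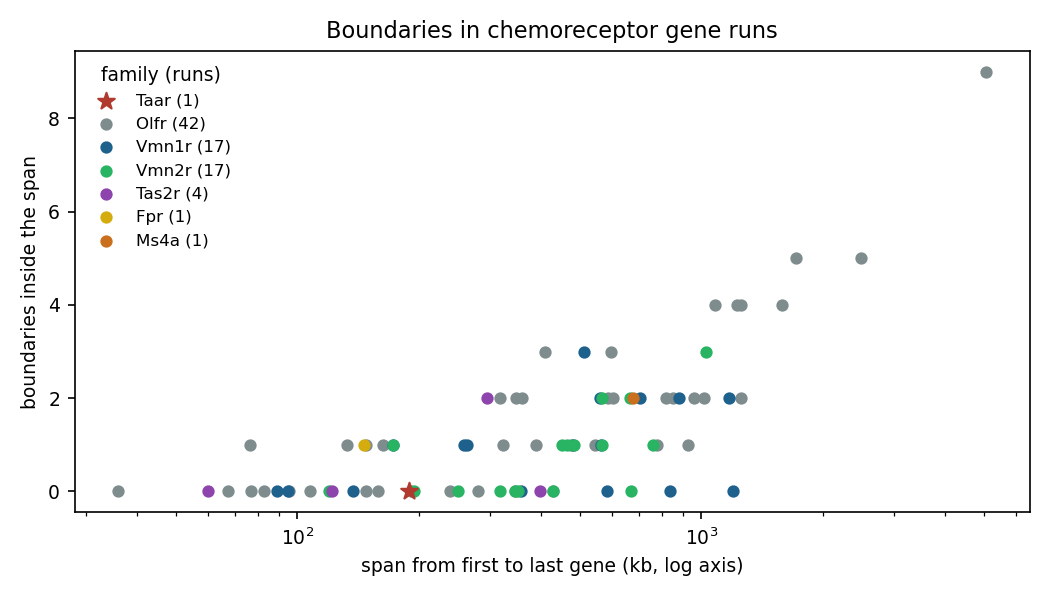
Boundaries inside each run of chemoreceptor genes against its span in kb (log axis), by family, with the Taar run as a star. The Taar run is at 189 kb and 0 boundaries, among many runs of other families with 0 or 1.

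RefSeq promoters (GRCm38.p6, 250 bases before to 50 after the start) were at hand for Taar2, Taar3, Taar5, Taar6, Taar8b and Taar9, 6 of the 10 members. They were searched on both strands for words of the factors that use Ldb1 at olfactory receptor enhancers, CCCNNGGG for Ebf proteins and TAATTA or TAATGA for Lhx2. The Ebf word was in 0 of 6, against 13.8% of all promoters of this length. The Lhx2 words were in 2 of 6, against 13.9% of all promoters. The GC content of the 6 ranged from 30.7 to 48.7%, against a median of 53% over all promoters. Since the annotated starts of these genes are start codons, the windows need not hold the true promoters. The 2 windows with a Lhx2 word are shown, 5′ to 3′ on the strand of the gene, with the word in capitals, at position -239 from the start of Taar2 and at -148 from that of Taar8b.
Taar2, chr10:23938322-23938621, forward strand: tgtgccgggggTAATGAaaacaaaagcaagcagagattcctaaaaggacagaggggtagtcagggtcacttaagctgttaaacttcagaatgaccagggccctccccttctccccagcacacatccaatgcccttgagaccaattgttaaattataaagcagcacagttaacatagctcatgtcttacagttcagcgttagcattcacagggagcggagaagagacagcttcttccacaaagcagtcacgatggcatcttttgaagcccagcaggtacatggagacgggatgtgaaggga
Taar8b, chr10:24092245-24092544, reverse strand: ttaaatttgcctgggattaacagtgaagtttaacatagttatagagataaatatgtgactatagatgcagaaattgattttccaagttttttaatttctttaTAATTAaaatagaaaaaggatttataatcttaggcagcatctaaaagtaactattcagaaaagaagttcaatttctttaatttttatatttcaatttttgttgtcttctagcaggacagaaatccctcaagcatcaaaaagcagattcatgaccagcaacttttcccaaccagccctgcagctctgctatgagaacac

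Genes of olfactory signalling, of amine supply and breakdown and of receptor choice gave values to set beside the members' median of 114 kb. Of 20 genes of olfactory signal transduction and receptor transport, 3 started within 10 kb of a boundary, and the median distance was 47.2 kb. They were Gnal, the olfactory G protein alpha subunit (boundary strength 1.78), Gng13, a G protein gamma subunit (0.444), and Gucy2d, a guanylate cyclase of a separate set of olfactory neurons (0.383). Ric8b, an exchange factor for the olfactory G protein, was the farthest at 272 kb, followed by Reep1 at 117 kb.

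Of 20 genes that make or break down amines, 1 started within 10 kb of a boundary, with a median distance of 53.1 kb. It was Odc1, which makes putrescine, 0.207 kb from a strong boundary (1.17). Maoa, a monoamine oxidase, was the farthest at 185 kb and Fmo2 came next at 154 kb. Of 14 genes of receptor choice, 1 started within 10 kb, Ehmt1, a histone methyltransferase (0.623), and the median was 25.3 kb, with Lhx2 (90.7 kb) and Ehmt2 (73.5 kb) farthest. These shares, 15, 5 and 7.14%, stand beside the 14.3% of all protein-coding genes, and the lists were not tested. Their medians of 47.2, 53.1 and 25.3 kb stand beside 56.6 kb for all protein-coding genes.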

How the data were processed

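In situ Hi-C was done on 2 replicates. The submitters made 1 contact matrix from the combined pairs of both replicates on GRCm38 and called boundaries on it, per the labels' design text. The deposited list gives each called 5 kb bin a class and the authors' score of its strength. The sources used here do not give the caller, its version, window or mask, and the depth is unknown. No bin lay past a chromosome end of the reference.

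The members and lists were chosen with earlier results of these data known. Distances run from the GENCODE gene start to the nearest edge of a bin, and a domain runs from inner edge to inner edge. No test was made, because the list has no replicate and no control. Named genes were all members, other genes starting in the domain, other Taar genes, the 3 nearest genes beyond each flank, the gene nearest to each of 3 boundaries a side, members of the lists at a boundary and the 2 farthest, the 5 most alike intervals and the 3 chemoreceptor runs closest in span. CTCF matches were exact to a 12-base consensus on either strand. Protein identity came from translated GENCODE coding sequence by global alignment (BLOSUM62, gap opening 10, extension 0.5) as the share of aligned columns. The functions were checked on made-up data with known answers. Python 3.11.15, numpy 2.4.6, pandas 2.3.3, matplotlib 3.10.9 and Biopython 1.88 were used. Alternatives were other windows, stricter boundaries, other gene starts and other motif settings.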

Additional observations from a re-analysis of the deposited data

How the results depend on the processing

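No paired analysis was possible because the series holds a single group, and leaving out a replicate was not possible with boundaries called once on the merged contacts. Of 40 alternatives, 20 left the value within the limit set for it (counts within 1.5 times, the length percentile within its interval, other values equal). All 10 members stayed in 1 domain under the 5 alternatives tried. With boundaries of a score of at least 1 alone, the domain grew to 795 kb, its right boundary was the one of strength 1.23 near Ccn2, and the median distance of members became 163 kb. From bin midpoint to midpoint the length was 330 kb and the median distance 117 kb, and over all 15 Taar genes the median was 113 kb. With RefSeq starts the median was 114.489 kb, against 114.464 kb with GENCODE starts. Within 50 kb, 3 members were at a boundary, in place of 0. The share of shorter intervals was 58.8% on chromosome 10 and 39.2% between strong boundaries alone. A CTCF consensus was inside 0 flanking bins (6.28% of all boundaries), within 25 kb of 2 (38.5%), and within 10 kb of 2 when 1 mismatch was allowed (89.1%). Of the 58 different genes in the 4 lists, other Taar genes included, 5 were at a boundary. Within 25 kb there were 20 (26.5% of all protein-coding genes), within 50 kb 33 (45.3%), and within 10 kb of strong boundaries alone 3 (9.3%). Either promoter word was in 2 of the 6 members with a RefSeq promoter (26.6% of all promoters). Of the same 6, 5 had one in the 1000 bases before the GENCODE start (65.3% of protein-coding genes), and 1 had the longer Ebf word or TAATTA in its RefSeq promoter (11.7% of promoters). From the first to the last member start, GC was 40.6% and the soft-masked share 36.2%. The cause of these shifts was not tested.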
